A study of Mus musculus with 12 samples.

Results

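Genes of the contractile apparatus were followed in cultured bone marrow stroma of mice that carried 1 functional copy of a transcriptional coactivator. A probe set was taken as contractile where its only platform symbol began with Myh, Myl, Tnnt, Tnni, Tnnc, Tpm, Acta or Actn followed by a digit, or was Mylk, Des, Cnn1, Tagln or Ckm. The rule found 15 probe sets of 11 genes, among 3109 probe sets tested and 1974 genes with 1 symbol. By the muscle type in which each protein is best known, 8 probe sets (6 genes: Myh1, Myh8, Acta1, Tnnt2, Tnnc1 and Myl4) were striated and 2 (Myh11 and Cnn1) were smooth. The 3 probe sets of Tpm2 belong to a gene of both types, and 2 (Myh9 and Myh10) belong to non-muscle myosins. Many contractile genes, among them Acta2, Tagln, Des, Mylk and Ckm, were not analysed here.

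The stroma came from C57BL/6 mice aged 3 to 4 months, as 4 biological replicates each of Crebbp+/-, Ep300+/- and Wild-type. Crebbp and Ep300 encode the paralogous histone acetyltransferases CBP and p300. Marrow from all 3 groups had grown for 2 weeks in M5300 medium to form an adherent layer, which was then irradiated with 1500 cGy. The design asks what the loss of 1 copy of either coactivator does to this layer. A probe set is a group of short oligonucleotides on an Affymetrix array that reads 1 transcript or several, and its value here is a log2 expression level. Levels can be compared between arrays for 1 probe set, but not between probe sets.

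Muscle cells shorten when myosin heavy chains, the motor proteins, pull on actin filaments. Striated muscle, skeletal and cardiac, arranges them in sarcomeres and switches them through troponin and tropomyosin on the thin filament. Smooth muscle has its own myosin heavy chain and no troponin, and nearly all other cells use non-muscle myosins to hold shape and move. Marrow stroma is a mixed adherent layer whose perivascular and fibroblast-like cells can carry smooth muscle genes, while sarcomeric genes are not among its usual markers.

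The array medians over all probe sets lay between 7.98 and 8.43. Crebbp, the targeted gene, read 7.88, 7.67, 7.71 and 7.72 in Crebbp+/- stroma, 8.73, 8.66, 8.48 and 8.73 in Ep300+/- stroma and 8.51, 8.45, 8.52 and 8.59 in Wild-type stroma, so its label held on every Crebbp+/- array. Ep300 itself was not analysed here. Of 11 fibroblast and stroma markers, 8 were measured, with means per array of 9.81 to 10.65 in Crebbp+/-, 9.27 to 10.32 in Ep300+/- and 9.75 to 10.61 in Wild-type. Crebbp+/- arrays 1 and 3 stood apart from the rest. Eif2s3y, a Y chromosome gene, read 2.73 and 2.69 there and 8.41 to 10.84 on the other 10 arrays, while the labels give no sex. Differences between Crebbp+/- and the other genotypes are given with these arrays. For many that weaken or lose a call they are also given without them, a choice made after the data were seen.

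Myh1 had the widest differences of the contractile genes. Both probe sets of Myh1, the heavy chain of a fast type of adult skeletal muscle fibre, were lower in Crebbp+/- than in Ep300+/- stroma, by 17.1 and 17.7 times in the fit. Without Crebbp+/- arrays 1 and 3, where Myh1 read near the bottom of the scale, the folds were 5.87 and 7.25. Myh11, the smooth muscle heavy chain, was 2.18 times higher in Crebbp+/- than in Ep300+/- stroma. Myh10, a non-muscle heavy chain, was 1.90 times higher in Crebbp+/- than in Wild-type stroma. None of these calls held without Crebbp+/- arrays 1 and 3, where only 0.0643% (from Ep300+/-) and 0.129% (from Wild-type) of all probe sets were called. The log2 difference of Myh11 then went from 1.12 to 0.98, and that of Myh10 from 0.93 to 0.96. No contractile probe set passed the test between Ep300+/- and Wild-type stroma.

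The first Myh1 probe set, 1427868_x_at, read 2.80, 6.32, 2.36 and 5.02 in Crebbp+/- stroma, 8.54, 6.51, 8.38 and 9.45 in Ep300+/- stroma, and 5.16, 7.05, 9.02 and 8.99 in Wild-type stroma. Every Crebbp+/- array lay below every Ep300+/- array, while the Crebbp+/- and Wild-type arrays overlapped through Wild-type array 1. The log2 difference between Crebbp+/- and Ep300+/- was -4.10 (SE 1.01, limma adjusted p = 0.0317), and against Wild-type it was -3.43 (SE 1.01, adjusted p = 0.0644). With the replicate number as a block, which took out what same-numbered cultures shared, the second also passed the threshold of 0.05 (adjusted p = 0.032). Leaving out Crebbp+/- arrays 1 and 3 gave -1.89 (adjusted p = 0.406).

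The other Myh1 probe set, 1427520_a_at, gave 2.81, 5.81, 2.55 and 4.69 in Crebbp+/-, 8.23, 6.39, 8.44 and 9.37 in Ep300+/- and 4.76, 6.70, 8.57 and 8.87 in Wild-type stroma. It ordered the arrays almost as the first did (Spearman's rho 0.986 over 12 arrays). Its log2 difference was -4.14 between Crebbp+/- and Ep300+/- (SE 0.97, limma adjusted p = 0.0271). Against Wild-type it was -3.26 (SE 0.97, adjusted p = 0.0648, or 0.0277 with the block), and -1.98 without those arrays (adjusted p = 0.401).

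The lowest Myh1 values lay at the bottom of the measured range. On Crebbp+/- array 3 the first probe set was, at 2.36, the lowest of all probe sets tested, and on array 1, where it read 2.80, the lowest of all was 2.71. The fifth percentile of the 12 arrays lay between 5.32 and 6.21. For either Myh1 set 3 of the 4 Crebbp+/- values, those of arrays 1, 3 and 4, lay below that of their own array. The size of these differences is therefore uncertain. The same holds for other striated genes, since all 4 Crebbp+/- values of Myh8, and 3 of the 4 for either Tnnt2 set and for Ttn, lay below the fifth percentile of their own array. The 2 lowest arrays are also the 2 of low Eif2s3y. Without them the difference from Ep300+/- was -2.55 for the first probe set (adjusted p = 0.238) and -2.86 for the second (adjusted p = 0.223). Both calls were also lost when any 1 of Crebbp+/- arrays 1 and 3 or Ep300+/- arrays 1 and 4 was left out, with differences of -3.99 to -3.51 and adjusted p from 0.0723 to 0.12 for the first probe set. For the second the differences were -4.10 to -3.67 and the adjusted p from 0.0628 to 0.0967. With the level of Eif2s3y as a covariate over all 12 arrays, the differences were -2.64 (adjusted p = 0.298) and -2.95 (adjusted p = 0.258).

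**Figure D1:**
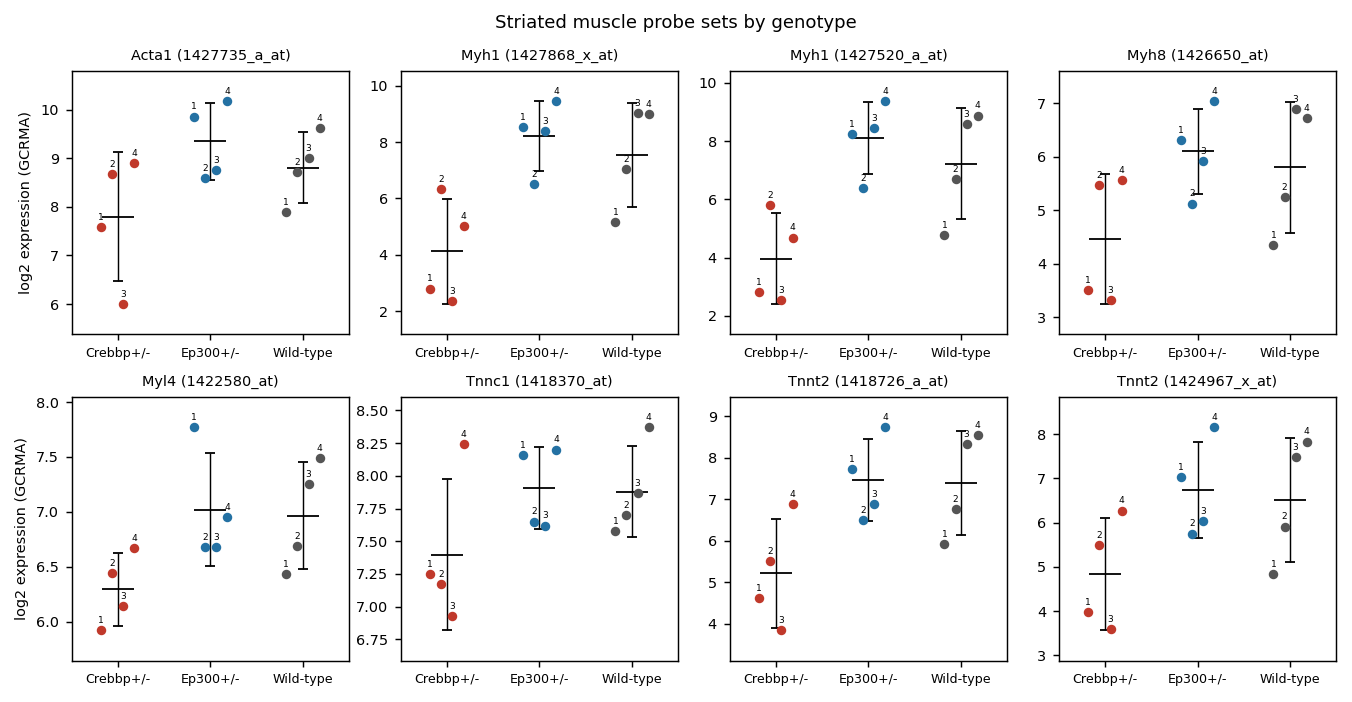
Log2 expression of the 8 striated muscle probe sets, with a point per array (numbered by replicate) for Crebbp+/-, Ep300+/- and Wild-type stroma; the bar is the mean and the whiskers are 1 SD (n = 4). Crebbp+/- arrays 1 and 3 are at or near the bottom of most panels, and Myh1 separates Crebbp+/- from Ep300+/- arrays without overlap.

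Myh8, the perinatal skeletal heavy chain, read 3.51, 5.47, 3.31 and 5.56 in Crebbp+/- stroma, 6.31, 5.12, 5.92 and 7.04 in Ep300+/- stroma and 4.34, 5.25, 6.89 and 6.72 in Wild-type stroma. Arrays 1 and 3 of Crebbp+/- were again the lowest of the 12, and the groups overlapped. The differences were -1.63 from Ep300+/- (adjusted p = 0.158) and -1.34 from Wild-type (adjusted p = 0.222), with neither past the threshold, and -0.58 and -0.29 without those arrays. On chromosome 11 Myh8 and Myh1 are separated by 1 coding gene, Myh4, and the proteins are close paralogs. Their probe sets, of which the _x_at set may bind other transcripts, cannot be taken as fully separate readings. Over the 12 arrays Myh8 followed Myh1 with Pearson's r of 0.954.

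Tnnt2, cardiac troponin T, ties the troponin complex to tropomyosin and is also made in embryonic skeletal muscle. Its probe set 1418726_a_at read 4.61, 5.51, 3.84 and 6.88 in Crebbp+/-, 7.73, 6.49, 6.88 and 8.73 in Ep300+/- and 5.92, 6.76, 8.32 and 8.55 in Wild-type stroma. Array 4 of Crebbp+/- reached into both other groups, while the other 3 lay below them. The difference was -2.25 from Ep300+/- (SE 0.74, limma adjusted p = 0.0832) and -2.18 from Wild-type (SE 0.74, adjusted p = 0.0947). With the replicate block both passed, at adjusted p = 0.0185 and 0.0225. Without the arrays of low Eif2s3y the differences were -1.26 and -1.19, with adjusted p of 0.42 and 0.486.

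The second Tnnt2 probe set, 1424967_x_at, read 3.97, 5.49, 3.59 and 6.27 in Crebbp+/-, 7.02, 5.75, 6.04 and 8.15 in Ep300+/- and 4.84, 5.91, 7.47 and 7.83 in Wild-type stroma. Here too arrays 1 and 3 of Crebbp+/- were lowest, and the groups overlapped. Its difference from Ep300+/- was -1.91 (limma adjusted p = 0.145, or 0.041 with the block), and its difference from Wild-type was -1.68 (adjusted p = 0.183, or 0.0601 with the block). Without the arrays of low Eif2s3y they were -0.86 and -0.63.

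Acta1, skeletal muscle actin, read 7.59, 8.68, 6.00 and 8.91 in Crebbp+/-, 9.86, 8.60, 8.76 and 10.18 in Ep300+/- and 7.89, 8.71, 9.01 and 9.63 in Wild-type stroma. Only Crebbp+/- arrays 1 and 3 lay below all arrays of the other genotypes. The differences of -1.56 from Ep300+/- and -1.02 from Wild-type did not pass (adjusted p = 0.139 and 0.302). Without those arrays they were -0.56 and -0.02.

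The 2 remaining striated genes differed less. Myl4, a light chain of embryonic muscle and of the cardiac atria, read 5.92, 6.44, 6.14 and 6.67 in Crebbp+/-, 7.77, 6.68, 6.68 and 6.95 in Ep300+/- and 6.43, 6.69, 7.25 and 7.49 in Wild-type stroma. The highest Crebbp+/- array (6.67) lay just below the lowest Ep300+/- arrays (6.68), and the mean difference of -0.73 did not pass (adjusted p = 0.195), nor did that of -0.67 from Wild-type (adjusted p = 0.21). Tnnc1, the calcium-binding troponin C of slow and cardiac muscle, read 7.25, 7.17, 6.93 and 8.24 in Crebbp+/-, 8.16, 7.65, 7.62 and 8.20 in Ep300+/- and 7.58, 7.70, 7.87 and 8.37 in Wild-type stroma. All groups overlapped, with differences of -0.51 from Ep300+/- and -0.49 from Wild-type (adjusted p = 0.36 and 0.343). Without Crebbp+/- arrays 1 and 3 the differences from Ep300+/- and from Wild-type were -0.46 and -0.41 for Myl4, and -0.20 and -0.18 for Tnnc1.

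The start regions of Myh1, Myh8 and Acta1 are shown because they were the contractile promoters in which a muscle motif searched, a MEF2 site or a CArG box, was found. Of the 11 genes, 10 had a promoter in the RefSeq table of build GRCm38.p6, with 11 promoters in all. Each ran from 250 bases before to 50 after the annotated start, which is counted as 0. Myh11 was the gene without a promoter there, so it was not searched. Both strands were searched for the MEF2 site, a motif of muscle genes, for the CArG box bound by serum response factor, and for the E-box CANNTG, which myogenic factors bind. The sequences run 5′ to 3′ on the strand of the gene, and the capitals mark a MEF2 site in Myh1 and Myh8 and a CArG box in Acta1. Myh1 lies at chr11:67199852-67200151 (plus strand), Myh8 at chr11:67276874-67277173 (plus strand) and Acta1 at chr8:123894726-123895025 (minus strand).
Myh1: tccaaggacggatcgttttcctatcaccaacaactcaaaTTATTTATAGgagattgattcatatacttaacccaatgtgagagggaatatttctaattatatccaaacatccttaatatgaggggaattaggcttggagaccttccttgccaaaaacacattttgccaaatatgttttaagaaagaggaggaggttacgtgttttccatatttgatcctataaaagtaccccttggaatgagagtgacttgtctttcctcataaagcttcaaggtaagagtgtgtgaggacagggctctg
Myh8: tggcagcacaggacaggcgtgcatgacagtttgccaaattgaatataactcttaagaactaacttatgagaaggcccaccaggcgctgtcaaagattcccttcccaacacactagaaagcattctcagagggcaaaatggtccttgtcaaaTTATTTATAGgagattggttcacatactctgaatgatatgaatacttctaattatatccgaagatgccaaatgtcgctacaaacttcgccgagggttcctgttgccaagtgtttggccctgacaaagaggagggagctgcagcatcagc
Acta1: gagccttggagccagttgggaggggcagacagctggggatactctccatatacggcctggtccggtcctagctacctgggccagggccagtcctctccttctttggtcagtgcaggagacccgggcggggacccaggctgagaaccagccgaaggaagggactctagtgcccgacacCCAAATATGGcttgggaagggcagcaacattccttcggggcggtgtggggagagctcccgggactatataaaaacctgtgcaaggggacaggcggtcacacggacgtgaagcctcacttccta

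The same MEF2 letters stood from -211 to -202 in Myh1 and from -99 to -90 in Myh8, within a run of 22 bases that both promoters share. That motif occurred in 3.19% of all 32851 promoters of the table. The CArG box of Acta1 began at -73, and 1.63% of all promoters held one. Both promoters of Tnnt2 held neither motif in this window. An E-box occurred in 9 of the 11 contractile promoters, against 72.3% of all. A match of letters is a description, and no binding was measured.

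Myh11 read 7.53, 7.44, 7.57 and 7.08 in Crebbp+/- stroma, 6.62, 6.68, 6.46 and 5.37 in Ep300+/- stroma and 6.73, 6.65, 6.32 and 6.55 in Wild-type stroma. Every Crebbp+/- array lay above every array of the other genotypes. The difference was 1.12 from Ep300+/- (SE 0.30, limma adjusted p = 0.0429). Against Wild-type it was 0.84 (SE 0.30, adjusted p = 0.107, or 0.0331 with the replicate block), and 0.70 without Crebbp+/- arrays 1 and 3 (adjusted p = 0.416).

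The call of Myh11 between the heterozygotes was close to the threshold. It held only when Crebbp+/- array 4 or Ep300+/- array 3 was the array left out, and leaving out any other 1 array gave differences of 0.82 to 1.25 with adjusted p from 0.0526 to 0.139. The value of 0.82 came without Ep300+/- array 4, the lowest of all. Without the 2 arrays of low Eif2s3y the difference was 0.98 (adjusted p = 0.23).

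Cnn1, calponin, which damps smooth muscle myosin, did not follow Myh11 over the 12 arrays. It read 7.23, 7.18, 6.82 and 8.84 in Crebbp+/-, 8.07, 8.35, 5.62 and 8.0 in Ep300+/- and 7.73, 8.08, 6.45 and 8.33 in Wild-type stroma. Array 3 was the lowest of each genotype, and the groups overlapped throughout. The differences were 0.01 from Ep300+/- and -0.13 from Wild-type (adjusted p = 0.994 and 0.895). Without Crebbp+/- arrays 1 and 3 they were 0.50 and 0.36 (limma adjusted p = 0.812 and 0.793). Over the 12 arrays Cnn1 and Myh11 had Pearson's r of -0.09.

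Tpm2, beta-tropomyosin of skeletal and smooth muscle, winds along the actin filament. Its probe sets 1419738_a_at and 1425028_a_at gave nearly the same values. The first read 12.35, 12.34, 12.44 and 13.08 in Crebbp+/-, 12.83, 12.83, 11.84 and 13.22 in Ep300+/- and 12.31, 12.42, 12.75 and 13.12 in Wild-type stroma. Array 4 was the highest of each genotype, and the groups overlapped. The 3 Tpm2 sets differed by -0.42 to -0.13 from Ep300+/- and by -0.26 to -0.10 from Wild-type, and none passed the test. Without Crebbp+/- arrays 1 and 3 they differed by -0.20 to 0.03 from Ep300+/- and by -0.04 to 0.06 from Wild-type.

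Myh10, non-muscle myosin IIB, read 10.01, 10.24, 10.02 and 9.90 in Crebbp+/- stroma, 9.18, 9.74, 9.17 and 9.17 in Ep300+/- stroma and 8.92, 9.12, 9.01 and 9.41 in Wild-type stroma. Every Crebbp+/- array was above all arrays of the other genotypes. Its difference was 0.93 from Wild-type (SE 0.23, limma adjusted p = 0.0338). From Ep300+/- it was 0.73 (SE 0.23, adjusted p = 0.077, or 0.0241 with the replicate block).

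Over all probe sets the median difference between Crebbp+/- and Wild-type stroma was 0.24. The call of Myh10 did not hold once that shift was taken out. With quantile normalization the difference of Myh10 from Wild-type was 0.62 (adjusted p = 0.144), and with arrays centred on their medians it was 0.73 (adjusted p = 0.0811). Without Crebbp+/- arrays 1 and 3 it was 0.96 (adjusted p = 0.246). Leaving out any 1 Wild-type array, Crebbp+/- array 1, 2 or 3 or Ep300+/- array 1 also ended the call, with differences of 0.86 to 1.02 and adjusted p from 0.0534 to 0.112.

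Myh9, non-muscle myosin IIA, did not follow Myh10. It read 11.08, 10.47, 12.03 and 11.58 in Crebbp+/-, 11.28, 11.28, 11.59 and 12.75 in Ep300+/- and 11.03, 11.58, 13.04 and 12.46 in Wild-type stroma. The groups overlapped, and the differences of -0.43 from Ep300+/- and -0.74 from Wild-type did not pass (adjusted p = 0.679 and 0.351).

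**Figure D2:**
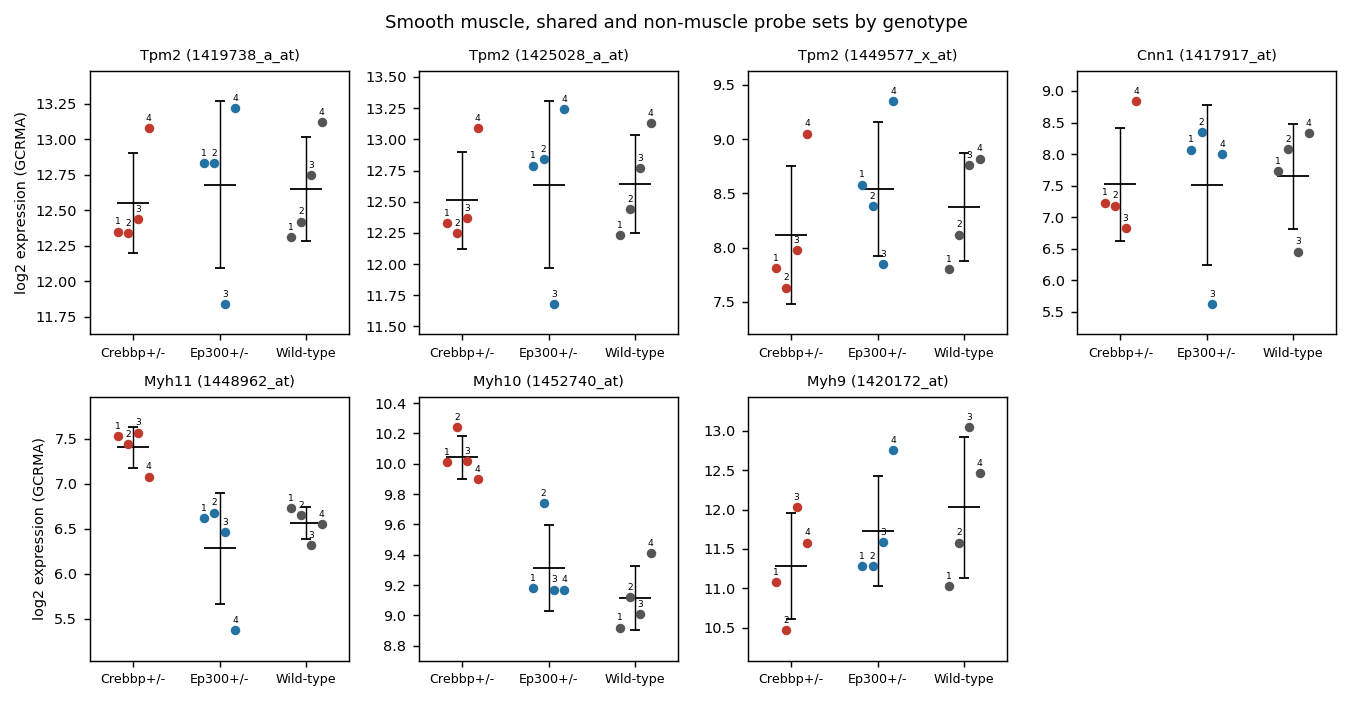
Log2 expression of the 7 probe sets of Tpm2, Cnn1, Myh11, Myh10 and Myh9, with a point per array (numbered by replicate); the bar is the mean and the whiskers are 1 SD (n = 4). Myh11 and Myh10 are the panels in which all 4 Crebbp+/- arrays lie above every other array.

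Counted over the 15 contractile probe sets, the comparison of Crebbp+/- with Ep300+/- gave 1 higher (Myh11) and 2 lower (both of Myh1). Over all 3109 probe sets 4.89% were called higher and 1.51% lower. Against Wild-type 1 contractile set was higher (Myh10) and 0 were lower, where 5.02% and 1.16% of all probe sets were. The limma fit thus called few sets in either case, though 9 and 6 of the 15 contractile sets had an unadjusted p under 0.05, as did 25.2% and 26.7% of all probe sets.

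With the replicate block, Crebbp+/- against Ep300+/- gave 2 higher (Myh11 and Myh10) and 4 lower (Myh1 and Tnnt2, by both probe sets), at a background of 19.1% and 5.31%. Crebbp+/- against Wild-type gave 2 higher (Myh11 and Myh10) and 3 lower (both sets of Myh1 and 1 of Tnnt2), at a background of 17.5% and 8.62%. Without Crebbp+/- arrays 1 and 3, 0 contractile sets were called by limma against Ep300+/- or Wild-type, where 0.0643% and 0.129% of all probe sets were. In that fit 4 of 15 contractile sets (from Ep300+/-) and 1 of 15 (from Wild-type) had an unadjusted p under 0.05, against 19.0% and 15.3% of all. The groups did not overlap for 5 of 15 contractile sets between Crebbp+/- and Ep300+/- (13.5% of all probe sets) and for 2 of 15 between Crebbp+/- and Wild-type (18.8% of all).

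Between Ep300+/- and Wild-type stroma, limma called 0.0% of all probe sets, and 0 contractile sets also had an unadjusted p under 0.05 (126 of all sets, or 4.05%, did). The widest contractile differences were 0.88 and 0.67 for the Myh1 sets, each smaller than its SE (0.97 and 1.01). With the replicate block 1 probe set of all was called and 0 contractile ones. Both comparisons with Wild-type share its 4 arrays.

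**Figure D3:**
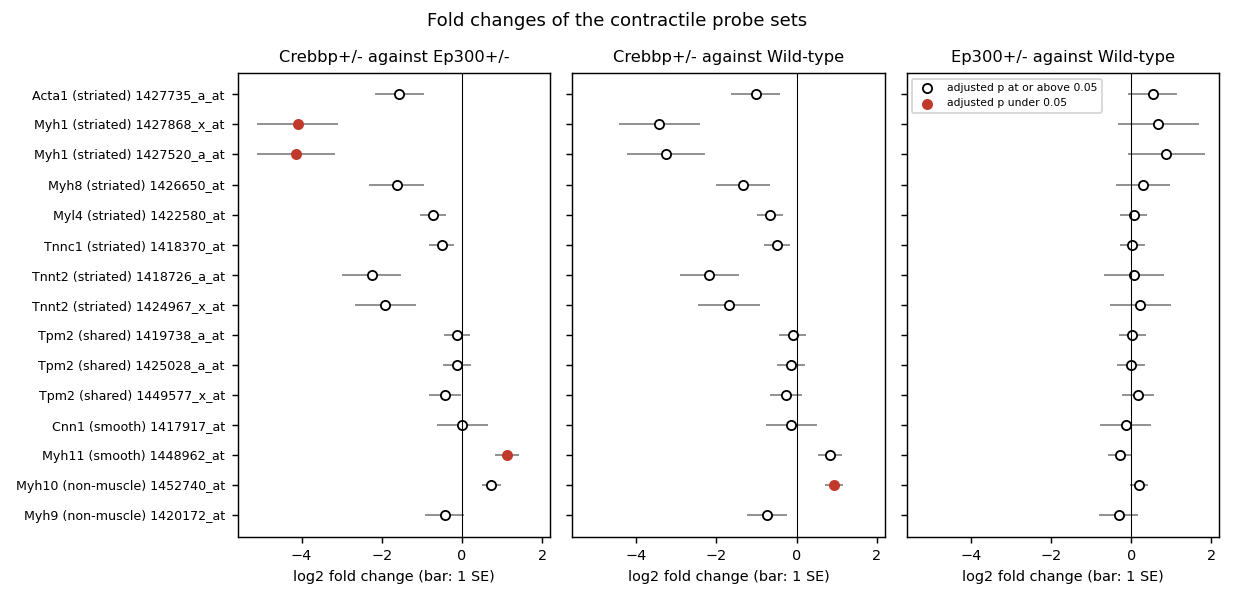
Log2 fold changes of the 15 contractile probe sets in the 3 comparisons, with bars of 1 SE from limma and filled points at an adjusted p under 0.05. Striated sets lie left of 0 in both Crebbp+/- comparisons and near 0 or right of it for Ep300+/- against Wild-type.

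Set side by side by muscle type, with 1 probe set a gene, the 6 striated genes had a median difference of -1.59 between Crebbp+/- and Ep300+/- and of -1.18 between Crebbp+/- and Wild-type. All 6 were below 0 in each, where 48.6% and 37.6% of all probe sets were. For Ep300+/- against Wild-type the striated median was 0.18, with 0 of 6 below 0 and 45.2% of all. The striated medians without Crebbp+/- arrays 1 and 3 were -0.57 from Ep300+/- and -0.35 from Wild-type, with 6 of 6 below 0 in each, where the medians of all probe sets were 0.10 and 0.20. Some single differences then came near 0, such as -0.02 for Acta1 from Wild-type. The 2 smooth muscle genes had medians of 0.57 and 0.36 in the Crebbp+/- comparisons, which came from Myh11 and not from Cnn1. Over all probe sets the medians were 0.03 and 0.24. Without Crebbp+/- arrays 1 and 3 the smooth medians were 0.74 from Ep300+/- and 0.53 from Wild-type. Cnn1 was then at 0.50 and 0.36, in the direction of Myh11. These genes share the same arrays, and RNA came from whole cultures, so fewer cells of a type and less RNA per cell cannot be told apart.

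The striated genes were high and low on the same arrays, within genotypes too. Measured against Myh1 over 12 arrays, Pearson's r was 0.927 for Tnnt2, 0.881 for Acta1, 0.828 for Myl4 and 0.709 for Tnnc1. Taken from each genotype's own mean, r was 0.858, 0.84, 0.685 and 0.558 in the same order. Wild-type array 1 was the lowest Wild-type array for all 8 striated sets. Myh11 ran against Myh1 (r of -0.83, Spearman's rho of -0.96), and less so within genotypes (r of -0.53). For Myh10 and Myh1, r was -0.65 over all arrays and 0.041 within genotypes.

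**Figure D4:**
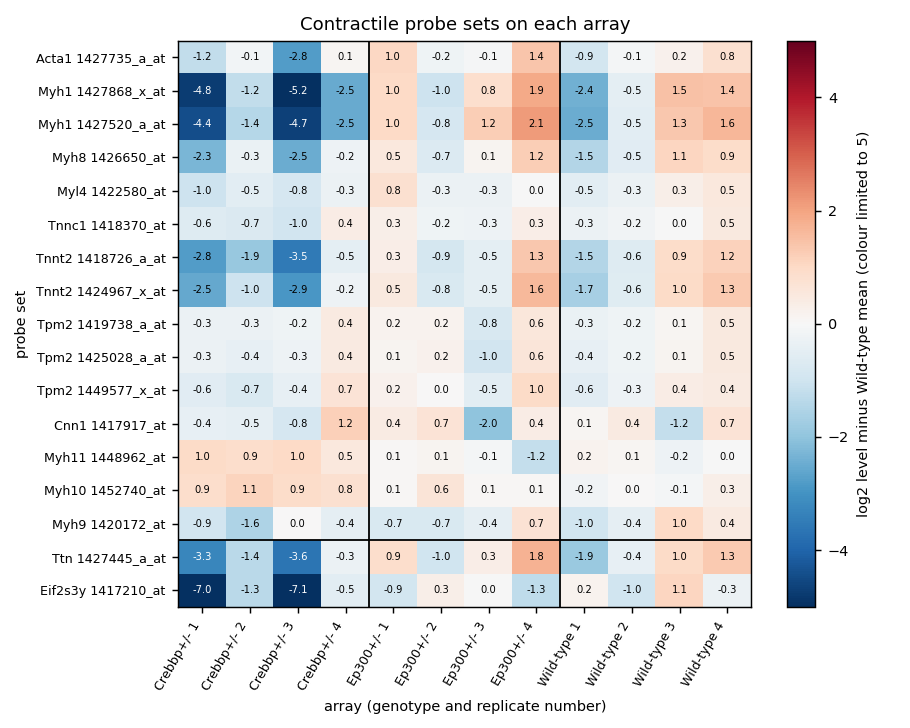
Log2 level minus the Wild-type mean for each contractile probe set and, below the line, for Ttn and Eif2s3y, on the 12 arrays (columns by genotype and replicate number). Crebbp+/- arrays 1 and 3 are the darkest blue columns for Myh1, Tnnt2, Ttn and Eif2s3y, and the rows of Myh11 and Myh10 are red on all Crebbp+/- arrays.

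Among genes outside the contractile set, the one most like Myh1 over 12 arrays was Ttn, titin, the giant spring protein of the sarcomere (r of 0.958, and 0.929 within genotypes, among 1963 genes compared). It read 3.03, 4.93, 2.64 and 5.97 in Crebbp+/-, 7.15, 5.30, 6.60 and 8.04 in Ep300+/- and 4.41, 5.88, 7.25 and 7.59 in Wild-type stroma. Since Ttn was chosen for its likeness to Myh1, its order of arrays and its differences follow in part from that choice. Its difference was -2.63 from Ep300+/- (limma adjusted p = 0.0819, or 0.0238 with the block) and -2.14 from Wild-type (adjusted p = 0.139, or 0.047 with the block). With Crebbp+/- arrays 1 and 3 left out these were -1.32 and -0.83. After Ttn came Itgbl1 (r of 0.883), Pdpn, the membrane protein podoplanin (0.87), Nbl1, an antagonist of bone morphogenetic proteins (0.856), and Rassf2 (0.849). Their r within genotypes was lower, at 0.674, 0.745, 0.633 and 0.586 in the same order.

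The genes most like Myh11 were Psmb8, a subunit of the immunoproteasome (r of 0.935), Slc1a6, a glutamate transporter (0.932), Fibin (0.928), Fam43a (0.924) and Rnf114, a ubiquitin ligase (0.92). Within genotypes r lay between 0.759 for Rnf114 and 0.911 for Fibin. Since these genes were chosen for their likeness to Myh11, their r follows in part from that choice. The Ep300+/- array with the lowest Myh11 value (5.37) was also the lowest Ep300+/- array for each of them. Their r within genotypes rests in part on that array, and r without it was not tested.

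Other muscle genes were sparse. Of 18 listed smooth muscle genes 4 were measured, and Cald1, caldesmon, a thin-filament regulator, was the only one outside the contractile set. It read 12.55, 12.38, 12.04 and 12.55 in Crebbp+/-, 12.14, 12.45, 11.40 and 11.70 in Ep300+/- and 11.89, 11.76, 11.52 and 11.71 in Wild-type stroma. Every Crebbp+/- array was above every Wild-type array, and the difference of 0.66 did not pass (limma adjusted p = 0.144). It passed with the block (0.0406), which called 17.5% of all probe sets higher. It also passed with array weights (0.00388), whose estimation stopped early and which called 1425 of all 3109 probe sets. From Ep300+/- the difference of Cald1 was 0.46, and the groups overlapped (limma adjusted p = 0.32, or 0.13 with the block). Of 35 listed skeletal genes 3 were measured, namely Acta1, Ttn and Eno3, the muscle enolase of glycolysis. Their mean per array was 4.97 to 7.06 in Crebbp+/-, 6.97 to 8.52 in Ep300+/- and 6.28 to 8.23 in Wild-type stroma, and the defining regulators Myod1 and Myog were not analysed here. Eno3 differed by -0.82 from Ep300+/- and -0.75 from Wild-type (adjusted p = 0.13 and 0.155). The median of Ttn and Eno3 was -1.72 from Ep300+/- and -1.44 from Wild-type. Without Crebbp+/- arrays 1 and 3 it was -0.97 and -0.69.

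Of 40 listed regulators of contraction and targets of serum response factor, 7 were measured, with Cald1 again among them. Against Wild-type 2 were higher in Crebbp+/- stroma and 0 lower, with a median of 1.13 over the 7, where 5.02% of all probe sets were higher. With the block 6 were higher, at a background of 17.5%. None of the 7 was called without Crebbp+/- arrays 1 and 3 by limma in either Crebbp+/- comparison, and the medians were 1.22 from Wild-type and 1.21 from Ep300+/-, with 4 and 5 at an unadjusted p under 0.05. Rgs5, a brake on G-protein signalling in pericytes, read 13.49, 13.35, 13.53 and 11.69 in Crebbp+/-, 11.09, 10.88, 11.24 and 9.09 in Ep300+/- and 11.78, 10.31, 9.97 and 9.71 in Wild-type stroma. It differed by 2.57 from Wild-type (limma adjusted p = 0.0267). Ankrd1, a stress-responsive ankyrin repeat protein of muscle, differed by 1.34 from Wild-type (adjusted p = 0.0372). Between Crebbp+/- and Ep300+/- 1 of the 7, Rgs5, was higher, or 5 with the block. Between Ep300+/- and Wild-type 0 of the 7 passed, with a median of 0.13.

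Markers of vessel cells were, like Myh11, higher in Crebbp+/- stroma. Of 10 mural (pericyte) markers 4 were measured (Rgs5, also in the list above, Rgs4, Notch3 and Mcam), and their mean per array was 9.11 to 10.44 in Crebbp+/-, 7.72 to 8.79 in Ep300+/- and 7.98 to 9.02 in Wild-type stroma. Of 15 endothelial markers 12 were measured, with means of 8.13 to 10.01, 6.73 to 7.64 and 7.29 to 8.46 in the same order. Crebbp+/- array 4 was the lowest Crebbp+/- array for Myh11 and for both lists, and Ep300+/- array 4 was the lowest Ep300+/- array for all 3. This order was not particular to vessel markers. Array 4 was also lowest in both heterozygotes for the fibroblast and stroma list (9.81 and 9.27) and the adipocyte list (10.14 and 10.43). For macrophage markers it was lowest in Crebbp+/- only, and for osteoblast markers in neither. Against Ep300+/-, where Myh11 was called, 3 of the 4 mural and 12 of the 12 endothelial markers were higher in Crebbp+/- stroma (medians 1.51 and 2.19), at a background of 4.89%. Against Wild-type 3 and 7 were higher, at a background of 5.02%, and 0 were lower in either comparison. The medians from Ep300+/- without Crebbp+/- arrays 1 and 3 were 1.17 and 1.70, and limma called none of these markers, with 3 and 12 at an unadjusted p under 0.05. From Wild-type the medians fell from 1.68 and 1.91 to 1.34 and 1.38 without those arrays. None was called there, with 3 and 7 at an unadjusted p under 0.05. The part of vessel cells in the difference of Myh11 was not tested.

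**Figure D5:**
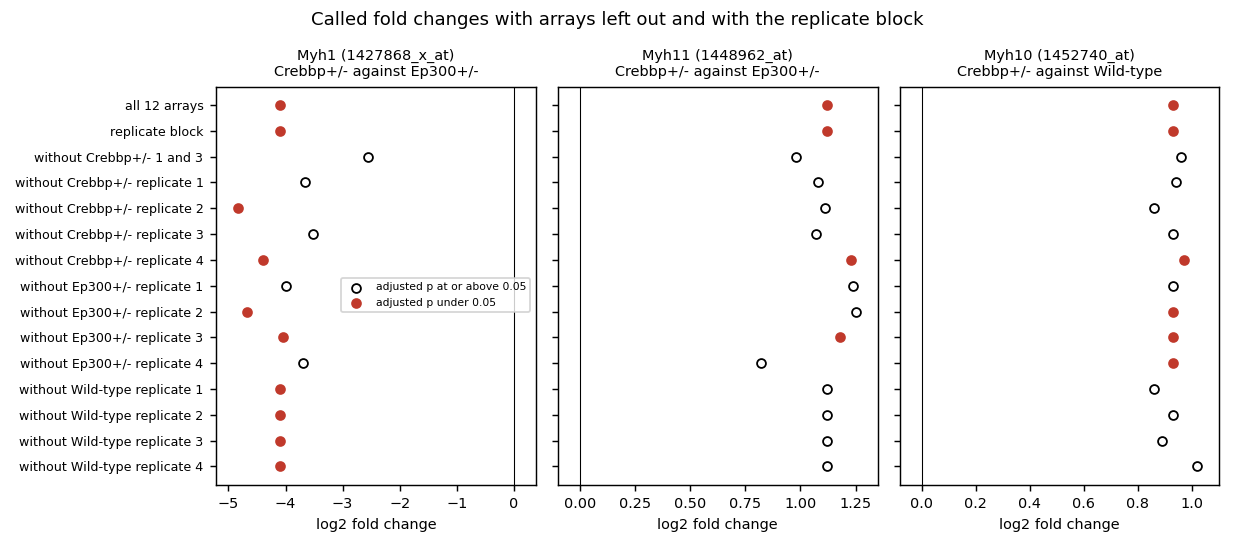
Log2 fold changes of Myh1 and Myh11 (Crebbp+/- against Ep300+/-) and Myh10 (Crebbp+/- against Wild-type) with all 12 arrays, with the replicate block, and with arrays left out; filled points have a limma adjusted p under 0.05. The direction never turned, while most refits of Myh11 and Myh10 that left out arrays lost the call.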

How the data were processed

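Expression was measured on 12 Affymetrix arrays of irradiated bone marrow stroma, 4 per genotype, which the labels call biological replicates. Values are on the log2 scale and came from GCRMA according to the submitters' processing notes; the authors deposited 3127 probe sets of the chip. Neither the version nor how they were chosen is stated in the sources used here. GCRMA subtracts a background estimated from probe sequence, so values near the bottom of the range depend on that estimate. The 18 control probe sets were left out, and genes were named from the platform table by probe sets with 1 symbol (2486 of 3109, with 176 holding several and 447 none), including all 15 contractile ones, matched by gene ID.

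No further normalization was applied. A linear model (limma 3.58.1, R 4.3.3, tested on simulated data) held the 3 genotype means of all 12 arrays, with moderated variances from eBayes. Two-sided p-values were adjusted by Benjamini-Hochberg across the 3109 probe sets, and an adjusted p under 0.05 was a call. Arrays carry no depth, and their number limits the precision. Every contractile probe set is named, and besides these the 5 genes most like Myh1 and Myh11 by Pearson's r, up to 4 members of smallest p of each gene list, and Crebbp and Eif2s3y as checks. A gene with several probe sets was taken by its set of highest mean for lists, types and likeness. The members and lists were chosen with earlier results of these data known.

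Replicate numbers recur in the 3 genotypes. After the genotype means were taken off, arrays of the same number correlated with r of 0.448 to 0.603 for Crebbp+/- and Wild-type and 0.294 to 0.513 for Crebbp+/- and Ep300+/-. Some arrays of unlike number correlated as strongly, such as Crebbp+/- array 2 with Wild-type array 1 (r of 0.587) and with Ep300+/- array 1 (0.517). Pairing is thus not established, and the main fit has none. The numbers served as a block in an alternative fit only. For Ep300+/- and Wild-type 1 pair of the same number had r of 0.059. Alternatives were the replicate block, array weights, Eif2s3y as a covariate, median centring or quantile normalization, a minimum mean of 100 on the linear scale, a robust trended variance prior, and fits restricted to the genotypes compared. Each array was left out in turn, as were both Crebbp+/- arrays of low Eif2s3y together.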

Additional observations from a re-analysis of the deposited data

Results flagged for a closer look

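Of 45 groups of 4 arrays (15 contractile probe sets in 3 genotypes), 5 held an array whose gap to its nearest neighbour took up most of the group's range, where chance gives about 1 in 20. Tpm2 read 13.08 and 13.09 by 2 of its probe sets on Crebbp+/- array 4, above the other Crebbp+/- arrays. Cnn1 read 5.62 on Ep300+/- array 3, below the other Ep300+/- arrays. Myh11 read 5.37 on Ep300+/- array 4, the lowest of all 12 arrays. Myh10 read 9.74 on Ep300+/- array 2, above the other Ep300+/- arrays and below every Crebbp+/- array.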

How the results depend on the processing

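Counts of calls moved with the alternatives. For Crebbp+/- against Wild-type, 192 probe sets of all were called (156 higher, 36 lower). Quantile normalization called 120 higher and 72 lower, and median centring 125 higher and 72 lower. Array weights, whose estimation stopped before reaching its tolerance, called 1425 of all and 10 contractile sets. The replicate block called 812 and 5. Eif2s3y as a covariate called 0 and 0, with 388 and 1 at an unadjusted p under 0.05, and leaving out both Crebbp+/- arrays of low Eif2s3y called 4 and 0. Quantile normalization and median centring each called 0 contractile sets, against 1. Leaving out 1 array gave 5 to 383 calls of all and 0 to 2 contractile ones.

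For Crebbp+/- against Ep300+/-, 199 probe sets of all and 3 contractile ones were called. The fit of these genotypes alone called 51 and 1, array weights 1533 and 12, and the replicate block 760 and 6. Eif2s3y as a covariate called 0 and 0, with 479 and 4 at an unadjusted p under 0.05, and leaving out both arrays of low Eif2s3y called 2 and 0. The filter on low values kept 11 of 15 contractile sets, without Myh1, and called 1. Leaving out 1 array gave 2 to 374 calls of all and 0 to 4 contractile ones. For Ep300+/- against Wild-type, with 0 calls, array weights called 18, the block 1, and leaving out 1 array 0 to 1, with 0 contractile calls in each. The cause of these shifts was not tested.

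Every contractile call kept its direction under all alternatives run. The sign of other log2 differences turned where they lay near 0, and apart from Cnn1 with array weights (adjusted p = 0.0376) none of the turned values was past the threshold. For Crebbp+/- against Wild-type, leaving out 1 array gave -0.27 to 0.06 for Tpm2 1419738_a_at, -0.32 to 0.03 for Tpm2 1425028_a_at and -0.57 to 0.10 for Cnn1 1417917_at. With Eif2s3y as a covariate, Crebbp+/- against Wild-type gave 0.06 for Tpm2 1419738_a_at, 0.02 for Tpm2 1425028_a_at and 0.25 for Cnn1 1417917_at. With both Crebbp+/- arrays of low Eif2s3y left out, Crebbp+/- against Wild-type gave 0.06 for Tpm2 1419738_a_at, 0.03 for Tpm2 1425028_a_at and 0.36 for Cnn1 1417917_at. For Crebbp+/- against Ep300+/-, leaving out 1 array gave -0.41 to 0.05 for Tpm2 1419738_a_at, -0.44 to 0.08 for Tpm2 1425028_a_at and -0.62 to 0.29 for Cnn1 1417917_at. With Eif2s3y as a covariate, Crebbp+/- against Ep300+/- gave 0.0078 for Tpm2 1419738_a_at and 0.01 for Tpm2 1425028_a_at. With both Crebbp+/- arrays of low Eif2s3y left out, Crebbp+/- against Ep300+/- gave 0.03 for Tpm2 1419738_a_at and 0.03 for Tpm2 1425028_a_at. With quantile normalization, Crebbp+/- against Ep300+/- gave -0.15 for Cnn1 1417917_at. With median centring, Crebbp+/- against Ep300+/- gave -0.13 for Cnn1 1417917_at. With array weights, Crebbp+/- against Ep300+/- gave -0.84 for Cnn1 1417917_at. For Ep300+/- against Wild-type, leaving out 1 array gave -0.13 to 1.24 for Myh1 1427868_x_at, -0.19 to 0.66 for Myh8 1426650_at, -0.20 to 0.23 for Myl4 1422580_at, -0.08 to 0.19 for Tnnc1 1418370_at, -0.42 to 0.46 for Tnnt2 1418726_a_at, -0.33 to 0.67 for Tnnt2 1424967_x_at, -0.15 to 0.31 for Tpm2 1419738_a_at, -0.21 to 0.31 for Tpm2 1425028_a_at, -0.11 to 0.39 for Tpm2 1449577_x_at, -0.54 to 0.49 for Cnn1 1417917_at, -0.41 to 0.02 for Myh11 1448962_at, -0.65 to 0.03 for Myh9 1420172_at and -0.13 to 0.98 for Ttn 1427445_a_at. With median centring, Ep300+/- against Wild-type gave -0.0021 for Myl4 1422580_at, -0.03 for Tnnc1 1418370_at and -0.03 for Tpm2 1419738_a_at. With quantile normalization, Ep300+/- against Wild-type gave -0.04 for Tnnc1 1418370_at and -0.24 for Tpm2 1419738_a_at. With array weights, Ep300+/- against Wild-type gave -0.0029 for Tnnc1 1418370_at, -0.12 for Tnnt2 1418726_a_at, 0.19 for Tpm2 1425028_a_at and 0.19 for Cnn1 1417917_at. With Eif2s3y as a covariate, Ep300+/- against Wild-type gave 0.01 for Tpm2 1425028_a_at.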
